A study of Mus musculus with 12 samples.

Results

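The PBX, MEIS and PKNOX genes encode homeodomain proteins of the TALE class, named for the loop of extra amino acids inside the homeodomain. PBX proteins pair with MEIS or PKNOX proteins, and these pairs join HOX proteins on DNA in connective tissue, muscle and other mesenchymal lineages. MEIS and PKNOX proteins also help keep PBX proteins in the nucleus. Chromatin accessibility was examined here at 8 of these genes: Pbx2, Pbx3 and Pbx4, Meis1, Meis2 and Meis3, and Pknox1 and Pknox2. A locus was the gene body in the GENCODE M21 annotation of mm10 (GRCm38) plus 50000 bp upstream, and every listed peak whose summit lay inside was a member. These loci held 429 of the 658361 peaks.

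The peaks come from ATAC-seq, in which a transposase inserts adapters into accessible DNA. The cells were primary skeletal muscle fibroblasts of Aromhum mice, which carry the human aromatase gene, cultured per the methods of the study from lower abdominal muscle. The 4 groups of 3 libraries were vehicle (ethanol and DMSO), E2 (estradiol, 10 nM), E2 10 nM plus the estrogen receptor antagonist fulvestrant at 100 nM, and fulvestrant alone at 100 nM. All were labelled 1 hr, which per the methods followed 3 hours with fulvestrant or DMSO. All groups share the Aromhum genotype, and no cells without it were profiled in these libraries. The labels do not say whether libraries of a group came from separate mice or cultures, so p-values measure only the spread between these libraries.

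The libraries differed within treatments as well as between them. Lists held 30062 to 110724 peaks, and the background, a measure of relative depth recovered from the peak values, ran from 0.713 to 1.42 tags per window. The 4 libraries with replicate number 1 had 22 to 36 peaks on the Y chromosome, against 854 to 1148 in those with numbers 2 and 3. The share of protein-coding genes with a peak at their own promoter was 57.4% to 62.7% in the number 1 libraries. Among numbers 2 and 3 it was 43.7% and 53.6% with vehicle and 16.8% to 29.2% with the other treatments. Fibroblast markers (10 genes) had a promoter peak in a median of 6.5 of 12 libraries, against 1 for 5 myogenic, 3.5 for 4 endothelial, 1.5 for 4 immune and 2 for 4 epithelial markers. Single genes overlapped between the lists, from 3 to 10 libraries for fibroblast and 0 to 6 for myogenic markers. Pax7 and Myod1, which define muscle precursors, had a promoter peak in 0 libraries, Myf5 in 1, Myog in 4 and Des, a gene of differentiated muscle, in 6.

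The regions that carry the account below are the start sites of 6 of the genes and a pair of sites inside Pknox2. After merging peaks that overlapped or touched across libraries, the own-promoter region listed most often at each of these 6 genes was found in 5 to 7 of the 12 libraries. The following sequences are the 200 bases of each region nearest its median summit that touch no annotated UTR, read from GRCm38 on the strand of the gene. Capitals mark TGACAG, the hexamer bound by MEIS, PKNOX and TGIF proteins, or TGANTCA, the AP-1 element. Those for Pbx3 and Pknox2 lie in an intron near the gene's start, and those for Meis1 and Pbx4 lie just upstream of the gene. The Meis2 and Pknox1 sequences also lie upstream, with 87 bases inside an exon of the divergent gene 2700033N17Rik and 200 inside an exon of AC166172.4.
Pbx3 promoter, chr2:34372727-34372926, minus strand: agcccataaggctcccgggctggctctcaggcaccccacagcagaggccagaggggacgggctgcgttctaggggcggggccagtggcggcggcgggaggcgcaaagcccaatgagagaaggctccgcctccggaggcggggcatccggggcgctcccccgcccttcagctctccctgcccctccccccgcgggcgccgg
Pbx4 promoter, chr8:69832291-69832490, plus strand: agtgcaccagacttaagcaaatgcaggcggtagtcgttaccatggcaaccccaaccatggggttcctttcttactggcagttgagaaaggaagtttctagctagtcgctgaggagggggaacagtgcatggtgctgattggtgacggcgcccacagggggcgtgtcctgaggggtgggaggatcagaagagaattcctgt
Meis1 promoter, chr11:19018986-19019185, minus strand: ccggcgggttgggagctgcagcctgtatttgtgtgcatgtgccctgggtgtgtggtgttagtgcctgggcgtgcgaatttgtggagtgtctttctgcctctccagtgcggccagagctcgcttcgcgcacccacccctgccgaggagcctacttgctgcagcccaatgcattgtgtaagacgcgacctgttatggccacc
Meis2 promoter, chr2:116067358-116067557, minus strand: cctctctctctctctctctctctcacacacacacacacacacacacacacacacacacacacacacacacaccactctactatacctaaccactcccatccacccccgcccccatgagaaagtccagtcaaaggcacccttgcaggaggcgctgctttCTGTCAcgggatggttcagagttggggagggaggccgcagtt
Pknox1 promoter, chr17:31564372-31564571, plus strand: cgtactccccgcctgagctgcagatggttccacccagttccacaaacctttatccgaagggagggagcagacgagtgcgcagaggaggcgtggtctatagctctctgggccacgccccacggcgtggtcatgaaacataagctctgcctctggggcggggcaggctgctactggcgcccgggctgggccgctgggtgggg
Pknox2 promoter, chr9:37146737-37146936, minus strand: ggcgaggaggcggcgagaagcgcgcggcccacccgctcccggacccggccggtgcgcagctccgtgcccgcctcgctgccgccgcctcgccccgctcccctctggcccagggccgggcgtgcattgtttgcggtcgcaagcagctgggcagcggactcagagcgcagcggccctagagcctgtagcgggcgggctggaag

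The Pknox2 intron regions are shown because they were the distal regions listed most often in the 8 loci, at 5 libraries each. They were chosen after their values were seen.
Pknox2 intron, strong region, chr9:37030215-37030414, minus strand: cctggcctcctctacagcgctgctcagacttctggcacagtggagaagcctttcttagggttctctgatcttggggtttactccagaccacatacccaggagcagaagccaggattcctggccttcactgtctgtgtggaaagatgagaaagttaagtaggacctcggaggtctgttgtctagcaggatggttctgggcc
Pknox2 intron, weak region, chr9:36898721-36898920, minus strand: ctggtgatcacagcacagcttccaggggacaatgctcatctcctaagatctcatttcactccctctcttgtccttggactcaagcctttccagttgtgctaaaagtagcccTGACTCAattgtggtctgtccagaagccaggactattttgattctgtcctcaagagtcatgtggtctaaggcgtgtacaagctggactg

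GC content at the summits was higher in the promoters than in the Pknox2 intron regions, by a small margin at Meis2. In the 200 bases centred on the median summits, GC was 56.0% to 77.0% with 4 to 27 CpG sites at the 6 promoters. Pknox2 had the CpG-richest promoter and Meis2, whose sequence opens with a run of CT and CA repeats, the poorest. The Pknox2 intron regions had 48.5% and 53.5% GC with 1 and 2 CpG sites. Over all regions listed in at least 6 libraries, the medians were 63.0% and 15 for 5400 start-site regions and 51.5% and 2 for 5161 distal regions.

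Few of the searched motifs occurred in these windows. TGACAG was present, on either strand, in the Meis2 window and absent from the other 5 promoters, while 10.9% of all recurrent start-site regions held it. TGANTCA occurred in the weaker Pknox2 intron region, and in 7.23% of all recurrent distal regions. Recurrent regions were those listed in at least 6 libraries, while the Meis1 region and both Pknox2 intron regions were listed in 5. TGATTGAC, the joint site of PBX with MEIS or PKNOX, and TGATTNAT, that of PBX with HOX, were in 0 of the 8 windows. They were in 0.667% and 0.907% of all recurrent start-site regions and 0.271% and 1.55% of distal ones. The perfect estrogen response element, GGTCA and TGACC with a spacer of 3 bases, was in 0 of the 8 windows and in 0 regions of either background. Motif letters can overlap one another, and a match is not evidence of binding.

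Peaks recurred more often at start sites than elsewhere, as they did over all regions. The 429 peaks formed 276 regions, of which 204 (73.9%) were listed in a single library, against 77.7% of all 435284 regions. Of the peaks, 169 (39.4%) were intronic, 104 (24.2%) lay within 3000 bp of a transcript start of the member gene, and 99 (23.1%) lay at a start of another gene. A further 44 (10.3%) were upstream and 13 (3.03%) in other exons. Regions listed in at least 6 libraries numbered 7 of 104 at start sites and 0 of 172 distal ones, where 5.74% of all start-site regions and 1.53% of all distal regions reached 6. Of the 7, 5 were own promoters, of Pbx3, Pbx4, Meis2, Pknox1 and Pknox2. The others were the start of Mapkap1, at -33.7 kb from the start of Pbx3, and the shared start of Wdr4 and Ndufv3, at -44.7 kb from that of Pknox1.

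**Figure D1:**
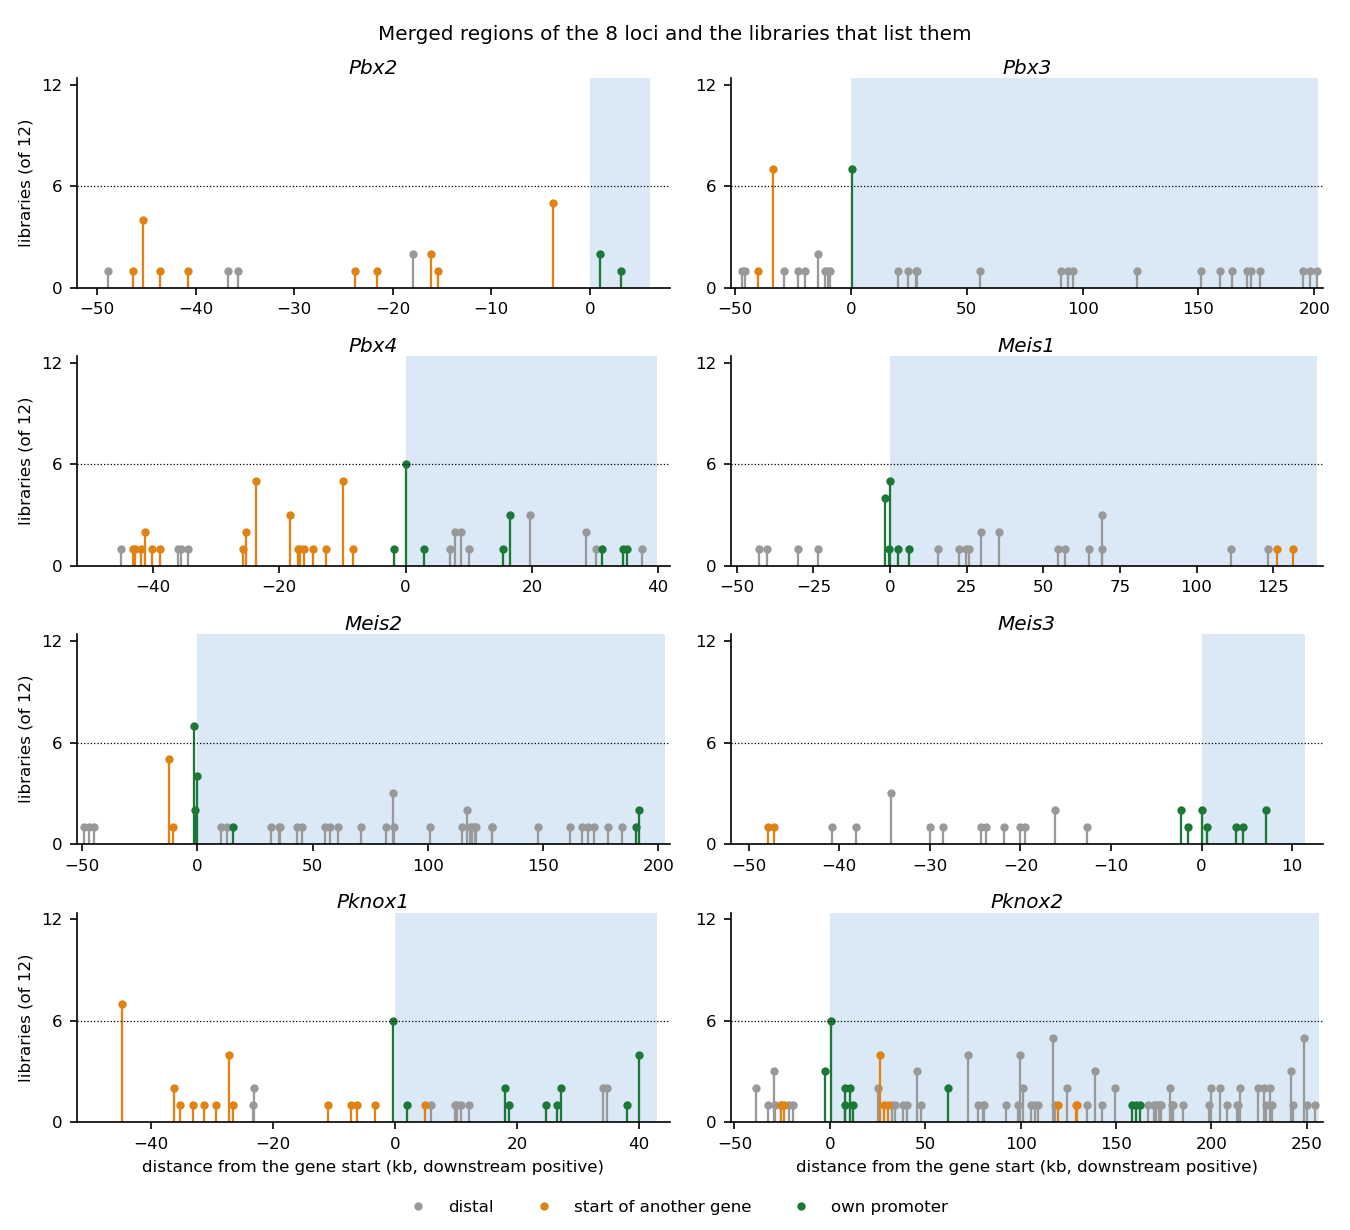
Each stem is a merged region, placed by its distance in kb from the start of the gene (x axis) with the number of libraries of 12 that list it (y axis). The gene body is shaded and the dotted line marks 6 libraries. Stems reach the line at gene starts, while grey distal stems stay at or below 5.

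The same few libraries supplied most of the recurrent regions. Of the 14 regions listed in at least 5 libraries, 12 (85.7%) were in the lists of all 4 number 1 libraries and of vehicle replicate 3, which held for 56.9% of the 19499 such regions overall. The promoters of the 8 genes were listed in 29 of 32 gene and library pairs (90.6%) with number 1 and in 34 of 64 (53.1%) with numbers 2 and 3. For all protein-coding genes the shares were 60.7% and 28.6%. By treatment, the 8 genes had 21 of 24 pairs listed with vehicle (87.5%), 13 with E2 (54.2%), 14 with E2 plus fulvestrant (58.3%) and 15 with fulvestrant (62.5%). All protein-coding genes were also listed most often with vehicle, at 51.6%, against 34.8%, 33.9% and 37.0%.

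**Figure D2:**
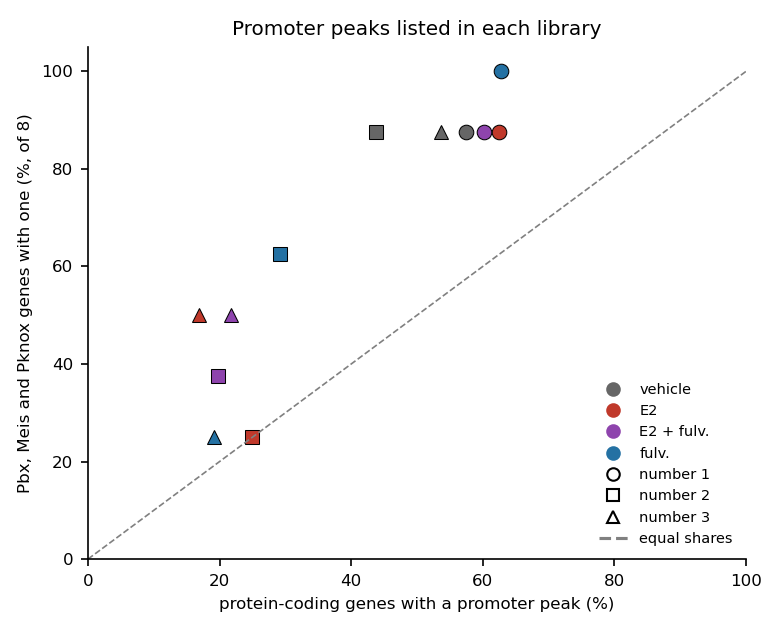
The share of the 8 genes with a promoter peak (y axis, %) is plotted against that of all protein-coding genes (x axis, %) for the 12 libraries. Colour gives the treatment and shape the replicate number. The E2 replicate 2 point, at 2 of 8 genes against 24.9%, lies on the dashed line of equal shares, and the other 11 points lie above it.

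A promoter peak was present in at least 6 libraries for 7 of the 8 genes, and 44.8% of 21728 protein-coding genes reached this. None of the 8 was listed in all 12, a level reached by 0.727%. The 8 genes had a median of 9 annotated transcript starts against 3 for all protein-coding genes, which widens the window in which a promoter peak can fall. With the 5′ end of the gene as the only start, a choice made after seeing the data, 7 of the 8 still reached 6 libraries, against 30.8% of all genes. When a peak had to have q of 0.05 or less, 3 of the 8 did (Pbx4, Pknox1 and Pknox2), against 14.4%.

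**Figure D3:**
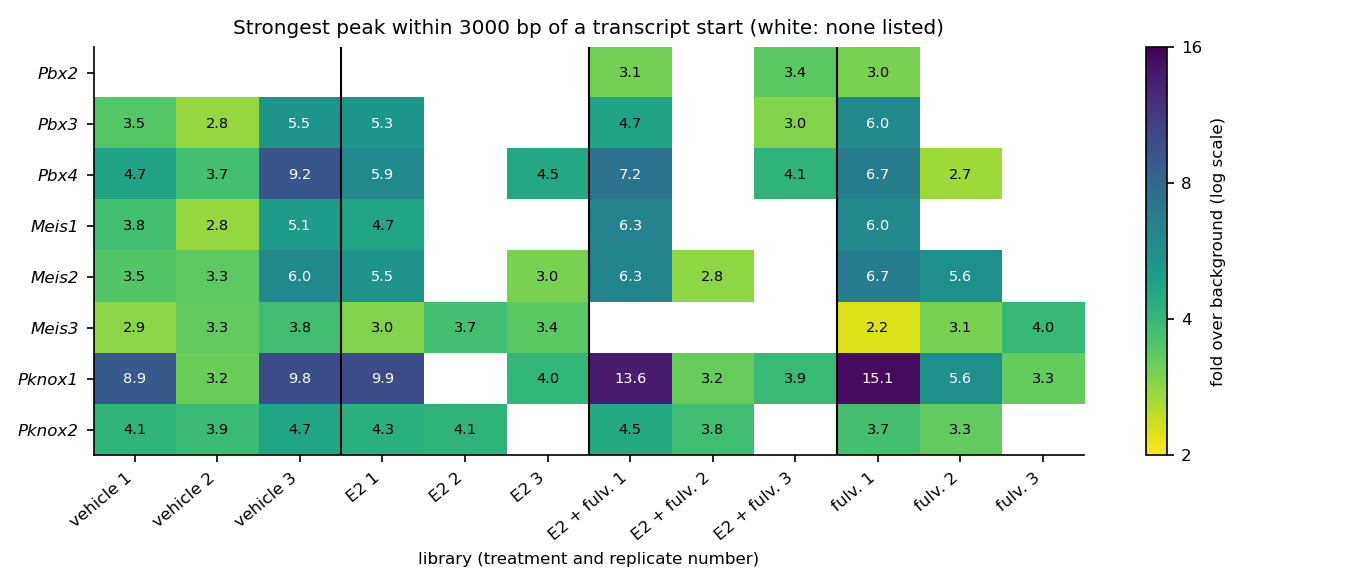
Rows are the 8 genes and columns the 12 libraries. Colour and number give the fold of the strongest own-promoter peak over local background on a log scale, and white means that none was listed. Pknox1 reaches 15.1, while Pbx2 is listed in 3 libraries and never above 3.37.

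Of the PBX genes, Pbx3 and Pbx4 had a promoter region in 7 and 6 libraries, and Pbx2 had promoter peaks in 3. All 3 encode the partner that joins HOX or MEIS proteins on DNA. At Pbx4 (chr8:69832491-69872292), the region over the start, chr8:69832201-69832931, had folds of 4.74, 9.17, 5.94, 7.25, 4.13 and 6.67 in vehicle replicates 1 and 3, E2 replicate 1, E2 plus fulvestrant replicates 1 and 3 and fulvestrant replicate 1. The pileups behind them were 8 to 21 tags. At Pbx3 (chr2:34171457-34373142), chr2:34372458-34373437 was listed in 7 libraries, with all 3 vehicle libraries among them. Its fold was 3.45, 2.78 and 5.45 with vehicle, 5.33 in E2 replicate 1, 4.74 and 2.97 in E2 plus fulvestrant replicates 1 and 3, and 6.0 in fulvestrant replicate 1. Tags numbered 4 to 14, and 4 of the 7 peaks had q of 0.05 or less.

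Pbx2 (chr17:34591266-34597400), the shortest gene of the 8, had a promoter peak in 3 libraries. Their folds were 3.08 and 3.37 in E2 plus fulvestrant replicates 1 and 3 and 3.03 in fulvestrant replicate 1, on 6 to 9 tags, and 0 of them had q of 0.05 or less. Neighbouring start sites held 17 of its 25 peaks. The region at the start of Notch4, chr17:34587091-34587715, 3.7 kb upstream of Pbx2, was listed in 5 libraries with folds of 3.21 to 6.15. Pbx4 likewise had 29 of its 61 peaks at starts of other genes, among them Gmip and Lpar2, in a window with 5.66 peaks per 100 kb over the 12 lists. That density stood at percentile 92.1 of protein-coding loci, and that of Pbx3, 1.42 per 100 kb, at percentile 18.

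The MEIS genes, whose proteins bind TGACAG and pair with PBX proteins, differed in how often 1 promoter region was listed, in 7 libraries at Meis2, 5 at Meis1 and no more than 2 at Meis3. At Meis2 (chr2:115863064-116065839) the recurrent region, chr2:116066895-116067656, lay 1.6 kb upstream of the outermost start, at the starts of the divergent noncoding genes 2700033N17Rik and G630016G05Rik. Its fold was 3.5, 2.78 and 5.97 with vehicle, 5.47 in E2 replicate 1, 6.28 in E2 plus fulvestrant replicate 1, and 6.67 and 5.64 in fulvestrant replicates 1 and 2. The region over the Meis2 start itself, chr2:116065504-116066062, was listed in 4 libraries. Meis1 (chr11:18879817-19018985), known for its roles in blood and limb development, had chr11:19018676-19019250 at its start in 5 libraries and chr11:19020337-19020878, 1.5 kb upstream, in 4.

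Promoter peaks of Meis1 were listed in 6 libraries. The fold of the strongest was 3.76, 2.78 and 5.08 with vehicle, and 4.72, 6.35 and 6.03 in replicate 1 of E2, E2 plus fulvestrant and fulvestrant. In the other 6 libraries it was not listed. At Meis3 (chr7:16175090-16186504), by contrast, promoter peaks were listed in 9 libraries but were scattered, with no own-promoter region in more than 2 libraries. Their folds were 2.23 to 3.96 on 4 to 10 tags, and 2 of the 9 had q of 0.05 or less.

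The listing of the Meis3 promoter by treatment was as follows, with no test of the difference. It had a promoter peak in all 3 vehicle, all 3 E2 and all 3 fulvestrant libraries and in 0 of 3 E2 plus fulvestrant libraries. Genes with a promoter peak in every E2 and no E2 plus fulvestrant library made up 0.324% of the 17267 with a promoter peak in either group, and the reverse pattern 0.278%. No other member showed either pattern. The Meis3 peaks rested on few tags and lay at different places from library to library, and a missing peak does not show that the promoter was closed. The peak in E2 replicate 2 lay 1490 bp from a start, so that a window of 1000 bp leaves it out, and 0 of the E2 libraries had a Meis3 promoter peak with q of 0.05 or less.

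Pknox1, which encodes the widely expressed protein also called PREP1, had the strongest promoter peaks of the 8 genes. The region over its start, chr17:31564052-31565001, had folds of 8.87 in vehicle replicate 1, 9.8 in vehicle replicate 3, 9.87 in E2 replicate 1, 13.6 in E2 plus fulvestrant replicate 1 and 15.1 in fulvestrant replicate 1. Fulvestrant replicate 2 followed at 5.64. Tags at these summits were 21, 38, 43, 55, 67 and 10, and the −log10 q reached 56.3. Among 9331 genes with a promoter peak in all number 1 libraries, the Pknox1 fold stood at percentile 91.7 with vehicle, 81.5 with E2, 95.4 with E2 plus fulvestrant and 97.8 with fulvestrant.

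The rise in fold from vehicle to fulvestrant among number 1 libraries was shared by other promoters. The median fold of those 9331 genes was 4.67, 6.37, 6.67 and 7.02 in the same order, so that single libraries per treatment and their depth cannot be told apart from the treatment here. In the other 5 lists with a Pknox1 promoter peak the strongest had a fold of 3.18 to 4.04, up to 2074 bp from the nearest start. E2 replicate 2 listed none. The shared start of Wdr4 and Ndufv3 upstream, chr17:31519672-31520450, was listed in 7 libraries, with folds of 10.6 and 8.41 in vehicle replicates 1 and 3, 6.21 in E2 replicate 1, 11.4 and 3.27 in E2 plus fulvestrant replicates 1 and 3, and 11.5 and 3.96 in fulvestrant replicates 1 and 2.

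Pknox2, the relative of Pknox1 with more restricted expression, had the most peaks, in the longest window, and a weak promoter. Its 3.4 peaks per 100 kb stood at percentile 56.4 of protein-coding loci. Its promoter region, chr9:37146315-37147406, had folds of 3.3 and 4.66 in vehicle replicates 1 and 3, 4.26 in E2 replicate 1, 4.47 and 3.79 in E2 plus fulvestrant replicates 1 and 2 and 3.7 in fulvestrant replicate 1. The highest of these, 4.66, was the lowest maximum among the 5 promoter regions listed in at least 6 libraries. Among the number 1 libraries the strongest Pknox2 promoter peak stood at percentiles 41.5, 21.1, 22.0 and 10.4 of the 9331 genes. The promoters of Pbx3, Pbx4, Meis1 and Meis2 stood between percentiles 18.7 and 56.6.

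Introns of Pknox2 held the distal regions that were listed most often. The gene spans chr9:36890982-37147407, and 81 of its 125 peaks were intronic. Of the 172 distal regions in the 8 loci, 136 were in a single library, 24 in 2, 8 in 3, 2 in 4 and 2 in 5. The 4 regions with 4 or 5 libraries, a cut chosen after seeing the data, all lay in Pknox2 introns. Their positions were chr9:36898440-36899152 and chr9:37029736-37030930 in 5 libraries and chr9:37047368-37047960 and chr9:37074271-37075389 in 4. Pknox2 also had the longest window of the 8 loci, at 306.4 kb. The share of all distal regions that reached 4 libraries is not given here.

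The region at chr9:37029736-37030930, 117.1 kb downstream of the gene start, was stronger than the promoter of its own gene. Its fold was 5.93 in vehicle replicate 1, 7.1 in vehicle replicate 3, 11.6 in E2 replicate 1, 9.06 in E2 plus fulvestrant replicate 1 and 8.25 in fulvestrant replicate 1, on 13, 23, 40, 28 and 31 tags. It was not listed in the other 7 libraries. The nearest annotated transcript start, of n-R5s82, was 3870 bp away. The region at chr9:36898440-36899152, near the far end of the gene, was listed in the same 5 libraries with folds of 2.48 to 4.33 on 4 to 10 tags.

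No distal region of the other 7 genes was listed in more than 3 libraries. Single regions in a Meis1 intron (chr11:18949809-18950358), a Meis2 intron (chr2:115980677-115981078) and a Pbx4 intron (chr8:69851800-69852480), and an exon of Slc8a2 upstream of Meis3 (chr7:16140505-16141195), were listed in 3 libraries each. The Meis1 and Meis2 regions were listed only in libraries with numbers 2 and 3. Pbx3 had 17 intronic peaks and no distal region in more than 2 libraries. Meis2 had 33 intronic peaks, of which 11 were in vehicle replicate 2, the longest list.

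The number of peaks in each locus was then compared between treatments, the central question being whether estrogen signalling through its receptor changes accessibility at these genes. Over the 8 loci the libraries held 48, 77 and 34 peaks with vehicle, 51, 25 and 18 with E2, 40, 27 and 28 with E2 plus fulvestrant, and 45, 16 and 20 with fulvestrant. The means were 53.0 ± 21.9, 31.3 ± 17.4, 31.7 ± 7.23 and 27.0 ± 15.7 (SD, n = 3). In such bulk libraries, fewer accessible sites and fewer cells carrying them cannot be told apart. Relative to list length, the means were 6.94 ± 0.731 peaks per 10000 with vehicle, 5.76 ± 0.674 with E2, 7.45 ± 0.892 with E2 plus fulvestrant and 5.92 ± 0.838 with fulvestrant. The highest E2 library, at 6.47 per 10000, was just below the lowest E2 plus fulvestrant library, at 6.57. How often other sets of 8 loci lie apart in this way was not tested. Vehicle replicate 2, and replicate 1 of each of the other groups, held the most peaks of their group.

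**Figure D4:**
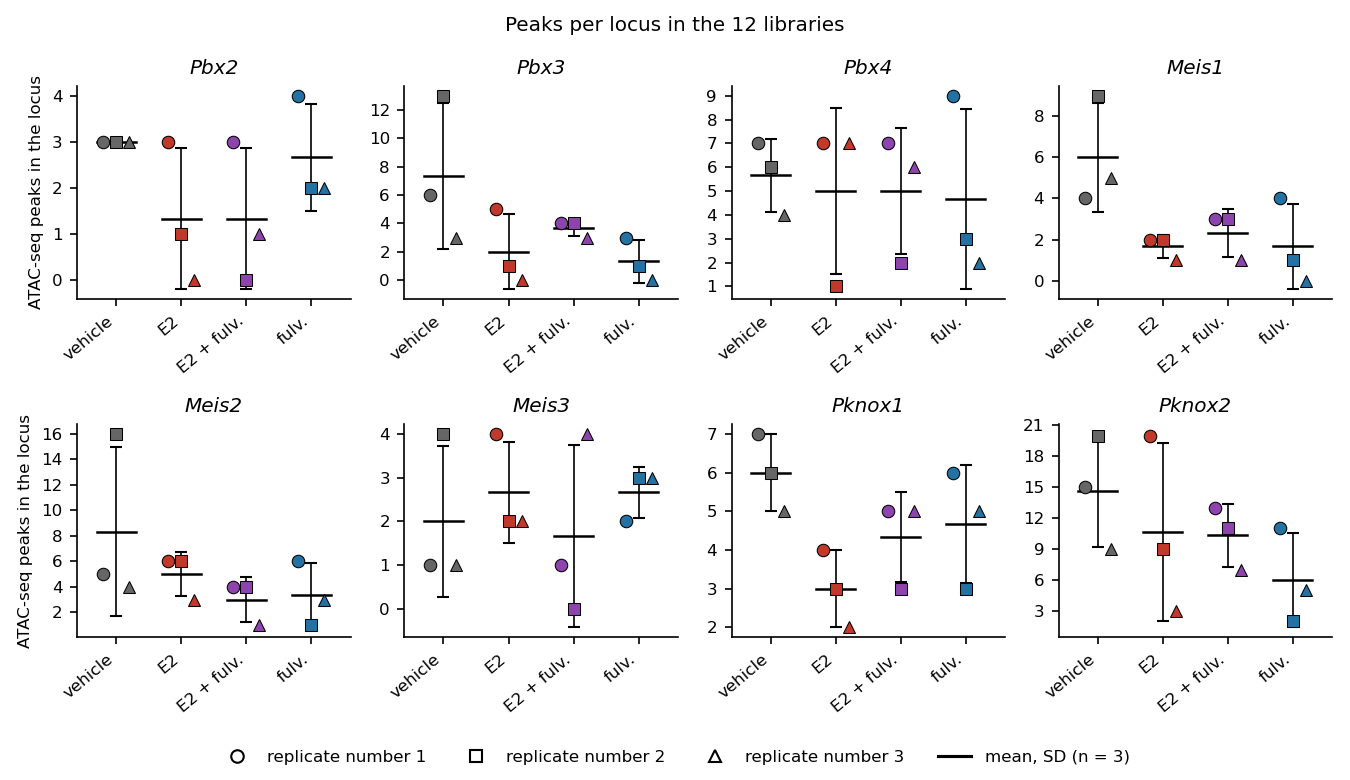
Peaks per locus (y axis, number) are plotted for the 8 genes by treatment (x axis), with 1 point per library shaped by replicate number. Bars give the mean and SD of 3 libraries. At Meis1 and Pknox1 the E2 points lie below all vehicle points, and at the other genes E2 and vehicle points overlap.

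In peak number, E2 and E2 plus fulvestrant libraries overlapped at all 8 loci. Exact permutation tests (two-sided) over the 6 libraries, which have 10 distinct splits and cannot go below p = 0.10, gave p = 0.3 at the lowest. Meis2 had 6, 6 and 3 peaks with E2 and 4, 4 and 1 with E2 plus fulvestrant, higher with E2 in 3 of 3 replicate numbers, with a difference in means of 2.0 (p = 0.3 by exact permutation). Pknox1 had 4, 3 and 2 with E2 and 5, 3 and 5 with E2 plus fulvestrant, a difference of -1.33 (p = 0.3 by exact permutation). Across the 21170 loci with a peak in either group, 1.71% had every E2 library higher and 0.458% every E2 library lower, so 0 members of 8 in each direction was near the background.

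Relative to list length, E2 lay below E2 plus fulvestrant in every library at 2 of the 8 loci. Pbx3 had 0.634, 0.205 and 0.0 peaks per 10000 with E2 and 0.657, 1.1 and 0.895 with E2 plus fulvestrant, a difference of -0.604 (p = 0.1 by exact permutation, the smallest possible). Pknox1 had 0.507, 0.616 and 0.631 with E2 and 0.821, 0.825 and 1.49 with E2 plus fulvestrant, a difference of -0.461 (p = 0.1 by exact permutation). Every E2 library was lower at 5.36% of loci and higher at 3.39%, where 0 members were higher. With the 30000 strongest peaks of each library the differences in peak number were -1.67 for Pbx3 (p = 0.4 by exact permutation) and -1.0 for Pknox1 (p = 0.7 by exact permutation).

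No region of the 8 loci separated E2 from E2 plus fulvestrant. Regions that every E2 library listed and every E2 plus fulvestrant library lacked, or the reverse, made up 0.137% and 0.0416% of the 228207 regions listed in either group. These loci held 146 of the regions listed in either group, and 0 of the 146 had either pattern, which was near the background.

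Against vehicle, Meis1 and Pknox1 had fewer peaks in every E2 library. Meis1 had 4, 9 and 5 peaks with vehicle and 2, 2 and 1 with E2, a difference of -4.33 (p = 0.1 by exact permutation, the smallest possible). Within number 1 the difference was -2.0, among numbers 2 and 3 it was -5.5, and without vehicle replicate 2 it was -2.83. Pknox1 had 7, 6 and 5 with vehicle and 4, 3 and 2 with E2, a difference of -3.0 (p = 0.1 by exact permutation). Loci with this pattern made up 3.27% of 21401, and those with every E2 library higher 0.173%. Meis1 was also lower in every E2 plus fulvestrant library, at 3, 3 and 1, a difference of -3.67 (p = 0.1 by exact permutation), a pattern of 5.7% of loci, with 0.155% higher. With fulvestrant, at 4, 1 and 0, Meis1 overlapped vehicle. No member separated fulvestrant from vehicle, where 4.65% of loci were lower and 0.169% higher in every library. These comparisons share the 3 vehicle libraries, and Benjamini-Hochberg adjusted p was 1.0 for every locus.

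List length differed between libraries. The longest list was that of vehicle replicate 2, at 110724 peaks, while vehicle replicate 1 (77390) was shorter than E2 replicate 1 (78822) and vehicle replicate 3 (44358) shorter than E2 replicate 2 (48738). In peaks per 10000 listed, Meis1 had 0.517, 0.813 and 1.13 with vehicle and 0.254, 0.41 and 0.315 with E2, and these remained apart. Pknox1 had 0.905, 0.542 and 1.13 with vehicle and 0.507, 0.616 and 0.631 with E2, and these overlapped. On this scale Pbx3 was lower in every E2 library too, and 4.93% of loci had the pattern. For E2 plus fulvestrant against vehicle it was 4.12% of loci and 0 members. At equal list length, with the 30000 strongest peaks of each library, the Meis1 difference between E2 and vehicle was -1.33 (p = 0.5 by exact permutation) and that of Pknox1 -0.333 (p = 1.0 by exact permutation). With q of 0.05 or less both were -1.0 (p = 0.4 and p = 0.7 by exact permutation).

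Pooling arms gave no member an unadjusted p of 0.05 or less. Any E2 was compared with no E2 within fulvestrant status, and any fulvestrant with no fulvestrant within E2 status, by exact permutation with 400 arrangements. For E2, 0.963% of 21495 loci were lower and 0.0884% higher at this level. For fulvestrant, 2.44% were lower and 0.0372% higher. Among members the lowest p was 0.08 by exact permutation, for Pbx2 in libraries with E2 (3, 1, 0, 3, 0 and 1 peaks) against those without (3, 3, 3, 4, 2 and 2), a difference of -1.5.

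The difference between the E2 effects without and with fulvestrant was set against exact permutations of the E2 labels within fulvestrant status. This test was added after the data were seen. It assumes no E2 effect in either arm, so its p is not a test of equal effects. Pbx3 had 6, 13 and 3 peaks with vehicle, 5, 1 and 0 with E2, 4, 4 and 3 with E2 plus fulvestrant, and 3, 1 and 0 with fulvestrant. Its number was lower with E2 than vehicle in 3 of 3 replicate numbers and higher with E2 plus fulvestrant than fulvestrant in 3 of 3. The effects were -5.33 and 2.33, a difference of -7.67 (p = 0.035 by exact permutation over 400 arrangements, adjusted p = 1.0 over all loci). At this unadjusted level 1.09% of 21495 loci were lower, as Pbx3 was, and 0.0837% higher. The difference was -2.0 within number 1 and -10.5 within numbers 2 and 3. Without vehicle replicate 2, which held 13 of the peaks, the difference was -4.83 (p = 0.07 by exact permutation). Meis1 had a difference of -5.0 (p = 0.07 by exact permutation), and the other 6 loci had p of 0.215 or more.

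Among 9 other TALE genes, the promoter was listed in a median of 6 of 12 libraries. Those of the IRX group, which pattern the heart and nervous system, ran from Irx4 with 0 and Irx6 with 2 to Irx3 with 6, Irx1 and Irx5 with 7 and Irx2 with 8. Tgif1 and Tgif2, repressors that bind the same hexamer as MEIS proteins, had 6 each, and Mkx, a tendon regulator, had 4. The 8 genes described above had a median of 9 and all protein-coding genes a median of 5. With the 5′ end of the gene as the only start these were 7 and 4, a count not given for the other TALE genes.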

How the data were processed

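ATAC-seq peak lists of 12 libraries, 3 for each of 4 treatments, were used. As the study's methods describe, the authors trimmed reads with Trimmomatic 0.39, aligned them to mm10 with Bowtie2, removed duplicates with Picard 2.21.4 and called peaks in each library with MACS2 2.2.71 (no model, shifted and extended tags). The processing notes list the same tools. In the deposited lists each peak has a fold, its p-value and q-value on the −log10 scale, and a score. The fold was read as the authors' ratio of pileup to local background after the same constant was added to both. The score was deposited as the −log10 p-value multiplied and truncated. The smallest −log10 p-value was 2.01, and no cutoff is named in the methods, which keep defaults unless stated. The MACS2 default is a q-value of 0.05, but only 7.35% to 46.4% of the peaks of a list reached it, so the lists were made with a looser cutoff. These values describe single peaks and were not tested. The lists hold no read counts. The fold and −log10 p-value of a peak together give its pileup in tags and its background, accepted when a whole pileup matched within 0.002, and the background gives relative depth only.

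Groups and replicate numbers came from the sample labels. A peak was assigned by its summit, and counted as a promoter peak where that summit lay no more than 3000 bp from a GENCODE M21 transcript start of its gene, inside the locus window. Peaks that overlapped or touched were merged into regions across libraries. Distal regions lay over 3000 bp from every start of any gene, and a recurrent region was listed in at least 6 libraries. All 8 genes are named. Distal regions and sequences were to be named in order of the number of libraries, up to 8 sequences, and since no distal region reached 6 libraries those shown were chosen after their values were seen. Mean peak numbers of 3 libraries a group were tested by exact permutation (two-sided) over libraries, with Benjamini-Hochberg adjustment over the loci of all protein-coding genes. Python 3.11.15, numpy 2.4.6 and pandas 2.3.3 were used, and the tests were tried on simulated data. Peak ends were checked against GRCm38 chromosome lengths, and 0 ran past one. The genes, lists and tests were chosen with earlier results of these data known. Columns of other samples were not present.

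Replicate numbers were checked for pairing. Deviations from group means over 18447 loci correlated at -0.043 to 0.183 (median 0.034) for 18 pairs of same-numbered libraries and at -0.125 to 0.101 (median -0.008) for 36 other pairs. The highest, 0.152 to 0.183, were among the number 1 libraries of E2, E2 plus fulvestrant and fulvestrant. Not every same-numbered pair was above 0.1, so the numbers were not treated as pairs, and values within number 1 and within numbers 2 and 3 are given.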

Additional observations from a re-analysis of the deposited data

Results flagged for a closer look

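Pbx3 peaks were flagged because the E2 effect differed between libraries without and with fulvestrant, at -5.33 and 2.33 peaks. The difference between the effects was -7.67 peaks (p = 0.035 by exact permutation, adjusted p = 1.0). Per 10000 listed peaks the effects were -0.595 and 0.644, a difference of -1.24 (p = 0.005 by exact permutation, the smallest that 400 arrangements allow, adjusted p = 1.0), and 2.39% of loci were lower at an unadjusted 0.05. Without vehicle replicate 2 that difference was -1.09 (p = 0.01 by exact permutation). At q of 0.05 or less the difference in peak number was -0.667 (p = 0.84 by exact permutation). The Meis1 difference per 10000 was -0.746 (p = 0.035 by exact permutation, adjusted p = 1.0).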

How the results depend on the processing

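The log2 ratio of mean peak number over the 8 loci was -0.76 for E2 over vehicle. It was -0.27 per 10000 peaks, -0.2 with the 30000 strongest peaks and 0.09 within replicate number 1. For fulvestrant over vehicle the ratio was -0.97, -0.12 with q of 0.05 or less, 0.0 with the 30000 strongest peaks and -0.09 within number 1. For E2 plus fulvestrant over vehicle it was -0.74, 0.1 per 10000 peaks and 0.15 with the 30000 strongest. For E2 over E2 plus fulvestrant it was -0.02, and leaving out libraries gave -0.56 to 0.26. This ratio was -0.37 per 10000 peaks, -0.35 with the 30000 strongest, 0.35 within number 1 and -0.36 within numbers 2 and 3. Across all listed peaks the ratio of E2 over E2 plus fulvestrant was 0.28. Over all listed peaks the log2 ratios against vehicle were -0.55 for E2, -0.78 for fulvestrant and -0.83 for E2 plus fulvestrant. In the same order, the values of the 8 loci against vehicle stayed lower when any library was left out (-1.3 to -0.39, -1.56 to -0.6 and -0.98 to -0.37). With a replicate block the values of the 8 loci against vehicle were -0.82, -1.04 and -0.69, and -0.13 for E2 over E2 plus fulvestrant. The block gave p = 0.25 by exact permutation for Meis1 and Pknox1 against vehicle, the smallest 3 numbers allow, and changed no call except that of Pbx3 below.

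Differences in peak number between E2 and E2 plus fulvestrant turned sign in several settings, and the cause was not tested. Pbx3 (-1.67) gave 0.333 at q of 0.05 or less, 0.667 at a fold of at least 5 and 1.0 within number 1. Meis1 (-0.667) gave 0.333 at q of 0.05 or less and with the 30000 strongest peaks. Pknox1 (-1.33) gave 0.333 in the gene body and with 10000 bp upstream. Pknox2 (0.333) gave -0.667 at a −log10 q of at least 5, -0.333 at a fold of at least 5, -0.639 per 10000, -3.67 with the 30000 strongest, -3.0 within numbers 2 and 3, -4.33 without E2 replicate 1 and -1.33 without E2 plus fulvestrant replicate 3, in a range of -4.33 to 4.17 without single libraries. Meis1 for E2 plus fulvestrant against vehicle (-3.67) gave 0.333 at a −log10 q of at least 5.

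The Pbx3 interaction (-7.67) gave 0.333 at a −log10 q of at least 5 and 0.667 at a fold of at least 5. It lost p of 0.05 at q of 0.05 or less (-0.667), in the gene body (-4.33), with 10000 bp upstream (-4.67), in the replicate block (exact p = 0.25, the smallest that 3 numbers allow) and without vehicle replicate 2, E2 replicates 2 or 3, or fulvestrant replicates 2 or 3. Values without a library ran from -9.83 to -4.83. The Meis1 interaction (-5.0) passed p of 0.05 without E2 plus fulvestrant replicate 3 (-5.67) and without fulvestrant replicate 1 (-6.17). Promoters in all libraries numbered 0, or 1 (Pknox1) without E2 replicate 2, and in at least 6 libraries 7, or 3 at q of 0.05 or less. Distal regions in at least 6 libraries numbered 0, and 4 or 12 at 4 or 3 libraries. Regions listed by every E2 library and absent from E2 plus fulvestrant numbered 0, but 2 without E2 replicate 2 and 1 without E2 replicate 3. Leaving out a library weakens the rule. The shares of all regions under these weaker rules, and under the limits of 4 or 3 libraries, are not given here. The alternatives for promoters in at least 6 libraries, the limits of 3 and 4 libraries and the interaction with its alternatives were chosen after seeing the data. The lists hold no read totals, so what depth limits was not tested. By the recovered background, vehicle replicate 1 was lowest (0.713 tags) with 7 of 8 promoters listed, and fulvestrant replicate 3 highest (1.419) with 2. E2 replicate 1 (1.253) and fulvestrant replicate 1 (1.213) were next highest, with 7 and 8 listed.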
